A study of Homo sapiens with 8 samples.

Results

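The genes described here are 10 long non-coding RNAs (lncRNAs) that carry small nucleolar RNAs (snoRNAs) in their introns: GAS5, SNHG1, SNHG5, SNHG6, SNHG7, SNHG8, SNHG12, SNHG15, SNHG16 and ZFAS1. They were chosen by name, as the rows among 58735 Ensembl genes whose GENCODE symbol is in that list, and all 10 were found once and passed the filter on low counts. RNA was sequenced from 22Rv1, an established human castration-resistant prostate cancer line, in 4 control libraries treated with the vehicle DMSO and 4 treated with PCC0208017, which the submitters describe as an inhibitor of the kinase MARK3. No genotype, dose or duration beyond this is given in the sources used here, and the labels do not say whether replicates were separate cultures, so p-values measure the spread between these libraries, which may be technical. Total counts ranged from 12672817 to 21271127, and the 10 lncRNAs together took 0.130% ± 0.00285 of a control library and 0.120% ± 0.00627 of an inhibitor library (SD, n = 4). All 10 listed luminal prostate markers had counts, with summed levels of 2702 to 2714 CPM (counts relative to the library total, here unscaled) in controls and 1960 to 2032 in inhibitor libraries. Summed levels of 7 stromal markers were 15.2 to 21.1 and 19.3 to 27.5 CPM, those of 7 immune markers at most 2.96 and those of 4 endothelial markers at most 0.141, with CD3D, CD3E, PECAM1 and CDH5 at 0 in all 8 libraries.

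snoRNAs guide chemical modification of ribosomal and spliceosomal RNA. Box C/D snoRNAs direct 2′-O-methylation and box H/ACA snoRNAs direct pseudouridylation, and in human cells nearly all are cut out of the introns of host genes. Many host genes, coding or not, begin transcription at a tract of pyrimidines, the terminal oligopyrimidine (TOP) element, through which mTOR signalling controls translation of the mRNAs of ribosomal proteins. The spliced host lncRNAs hold short open reading frames, are loaded onto ribosomes and are typically removed by nonsense-mediated decay (NMD), so that the level of a host lncRNA reflects both its transcription and its decay.

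RefSeq places 37 snoRNA genes inside the 10 hosts, strand not considered, of which 28 have box C/D names and 8 box H/ACA names. GAS5 holds 11, among them SNORD44, SNORD47 and SNORD74 to SNORD81, SNHG1 holds 9 and SNHG12 holds 4. SNHG16 and ZFAS1 hold 3 each, SNHG5 and SNHG7 hold 2 each, and SNHG6, SNHG8 and SNHG15 hold 1 each. An example of each class is shown for a host whose level fell, from the GENCODE transcripts and 5′ to 3′. SNORD1B (chr17:76561109-76561192, hg38, plus strand, 84 bases) lies in SNHG16, with the C-box core TGATGA and the last CTGA, the D box, in capitals. SNORA9 (chr7:44985378-44985510, minus strand, 133 bases) lies in SNHG15, with the last ACA triplet in capitals.
SNORD1B: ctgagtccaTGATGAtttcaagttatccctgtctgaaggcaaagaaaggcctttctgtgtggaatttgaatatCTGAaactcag
SNORA9: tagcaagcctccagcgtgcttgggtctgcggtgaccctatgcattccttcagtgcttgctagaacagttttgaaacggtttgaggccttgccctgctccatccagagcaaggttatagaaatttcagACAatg

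The start regions of 8 of the 10 hosts were found in the RefSeq promoter table (GRCh38.p14), which holds 250 bases before and 50 after each start. SNHG6 and SNHG15 had no entry. They are shown because the hosts share features there that the choice of genes did not use. A run of at least 4 C or T bases that begins with C and starts within 5 bases of the annotated start, capitals below, was found in 6 of 8 hosts, against 34.1% of 35116 promoters in the table. The motif TATAA, searched on both strands, was in 6 of 8 hosts (20.4% of all promoters), and in SNHG5, SNHG7, SNHG8, SNHG12 and ZFAS1 its plus-strand match began 28 to 34 bases before the start. These motifs were chosen after the sequences had been seen, and a match is a description of letters only. The 60-base windows below, from 30 bases before the start, are SNHG12 (chr1:28581844-28581903, minus strand), SNHG5 (chr6:85678704-85678763, minus strand), ZFAS1 (chr20:49278612-49278671, plus strand), SNHG8 (chr4:118278732-118278791, plus strand), SNHG1 (chr11:62855856-62855915, minus strand) and GAS5 (chr1:173869016-173869075, minus strand). In SNHG1 and GAS5 no such run was found at the RefSeq start, which for GAS5 lies 163 bases upstream of the GENCODE gene start. The RefSeq and GENCODE starts also differ in hosts with a run, by 1259 bases in SNHG12, 464 in ZFAS1 and 199 in SNHG5. They differ by 68 bases or fewer in SNHG1, SNHG7, SNHG8 and SNHG16. All runs are stated for the RefSeq start alone.
SNHG12: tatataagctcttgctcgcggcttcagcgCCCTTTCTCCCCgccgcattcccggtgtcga
SNHG5: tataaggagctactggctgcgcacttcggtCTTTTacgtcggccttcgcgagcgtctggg
ZFAS1: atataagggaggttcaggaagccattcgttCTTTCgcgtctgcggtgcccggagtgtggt
SNHG8: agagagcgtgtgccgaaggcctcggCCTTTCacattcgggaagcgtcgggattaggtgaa
SNHG1: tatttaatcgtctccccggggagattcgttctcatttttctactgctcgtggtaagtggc
GAS5: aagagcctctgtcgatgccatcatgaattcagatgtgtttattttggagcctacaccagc

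The whole 300-base regions are shown for SNHG7, the host whose level rose, and for SNHG16, one whose level fell. SNHG7 (chr9:136728135-136728434, minus strand) was the sole host of the 8 with the E-box CACGTG, whose first base lies 122 bases before the start and which 7.26% of all promoters hold on either strand. SNHG16 (chr17:76557514-76557813, plus strand) holds ACTACA followed, after any 2 bases, by TCCC, a motif also found in SNHG12 and ZFAS1 and in 1.75% of all promoters on either strand. Capitals mark the E-box, TATAA, this motif and the pyrimidine run, and none of these motifs overlaps another.
SNHG7: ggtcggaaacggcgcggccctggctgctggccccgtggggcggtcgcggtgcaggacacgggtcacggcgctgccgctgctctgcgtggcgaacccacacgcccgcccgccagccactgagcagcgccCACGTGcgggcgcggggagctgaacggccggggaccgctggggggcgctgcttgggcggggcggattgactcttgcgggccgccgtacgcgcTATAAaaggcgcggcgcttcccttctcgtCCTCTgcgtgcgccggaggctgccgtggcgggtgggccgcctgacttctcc
SNHG16: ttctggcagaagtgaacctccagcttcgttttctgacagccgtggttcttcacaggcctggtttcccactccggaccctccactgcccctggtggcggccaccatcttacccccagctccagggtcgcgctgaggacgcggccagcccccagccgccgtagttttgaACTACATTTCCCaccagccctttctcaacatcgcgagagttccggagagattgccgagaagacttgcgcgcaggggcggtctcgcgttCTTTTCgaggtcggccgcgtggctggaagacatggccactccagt

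The comparison of inhibitor with control libraries asked whether these hosts differ in 22Rv1 cells given the compound. Of the 10 hosts, 7 fell (SNHG15, SNHG1, SNHG16, SNHG8, SNHG12, SNHG6 and GAS5), SNHG7 rose, and SNHG5 and ZFAS1 did not pass the test. A gene was called at an adjusted p under 0.05 (quasi-likelihood test in edgeR, Benjamini-Hochberg over 16452 tested genes). By that rule 58% of all tested genes were called, 29.8% higher and 28.3% lower. The median log2 change of the 10 was −0.34, against 0.02 over all tested genes and 0.00 over 1897 other tested lncRNAs, of which 353 (18.6%) were called higher and 400 (21.1%) lower. In controls 2280 tested genes lay at or above 100 CPM (TMM scale, defined below), of which 1196 were called lower and 413 higher (median −0.16). Among the 14172 genes under 100 CPM, 3456 were called lower and 4484 higher (median 0.06). With total counts and no TMM factors the other lncRNAs split into 469 higher and 319 lower (median 0.11), and the 10 hosts into 1 higher and 6 lower (median −0.24). In the same 7 hosts that fell all inhibitor libraries lay below all controls, as in 25.1% of tested genes, and in SNHG7 all lay above, as in 25.8%. Levels below are CPM on the TMM scale (counts scaled to a common effective library size), changes are log2 differences, inhibitor minus control, ± SE, and a lower level in bulk RNA cannot tell fewer expressing cells from less RNA per cell.

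SNHG15 (ENSG00000232956; chromosome 7, 44983019 to 44986961, hg38, minus strand), host of SNORA9, had the largest fall of the 10. Its levels were 37.0, 36.9, 42.4 and 40.6 CPM in controls 1 to 4 and 9.83, 13.3, 12.4 and 13.3 CPM in inhibitor libraries 1 to 4. Every inhibitor library therefore held less than any control. The change was −1.67 ± 0.09 (3.19-fold lower, adjusted p = 1.18e-13), and 1.82% of all tested genes had a lower log2 change. Apart from small RNA genes such as SNORA9, which were not searched, no other annotated gene overlaps SNHG15 in GENCODE.

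SNHG1 (ENSG00000255717; chromosome 11, 62851978 to 62855953, minus strand), the classic host of SNORD22 and SNORD25 to SNORD31, had 88.3, 91.2, 90.9 and 87.5 CPM in controls and 48.1, 53.0, 53.5 and 50.7 CPM in inhibitor libraries. The groups were separated by more than the range within either. The change was −0.80 ± 0.06 (1.74-fold lower, adjusted p = 5.86e-11). SNHG16 (ENSG00000163597; chromosome 17, 76557727 to 76670985, plus strand), host of SNORD1A, SNORD1B and SNORD1C, had 41.7, 39.6, 43.2 and 37.7 CPM in controls and 28.6, 26.5, 26.1 and 25.9 CPM in inhibitor libraries. It was 1.52-fold lower (−0.60 ± 0.08, adjusted p = 2.21e-07).

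SNHG8 (ENSG00000269893; chromosome 4, 118278703 to 118285316, plus strand), host of SNORA24, varied least among controls, at 152.6, 152.6, 151.9 and 154.3 CPM, a coefficient of variation of 0.666%. Its inhibitor libraries held 107.3, 102.8, 97.9 and 110.1 CPM, a change of −0.55 ± 0.06 (1.46-fold lower, adjusted p = 1.00e-08). SNHG12 (ENSG00000197989; chromosome 1, 28578538 to 28583132, minus strand), host of SNORA16A, SNORA44, SNORA61 and SNORD99, had 19.5, 19.4, 25.5 and 19.9 CPM in controls and 14.01, 17.6, 16.0 and 14.5 CPM in inhibitor libraries, a change of −0.43 ± 0.10 (adjusted p = 0.000917). Control 3 stood above the other controls, and without it the change was −0.33 ± 0.10 (adjusted p = 0.00888).

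**Figure D1:**
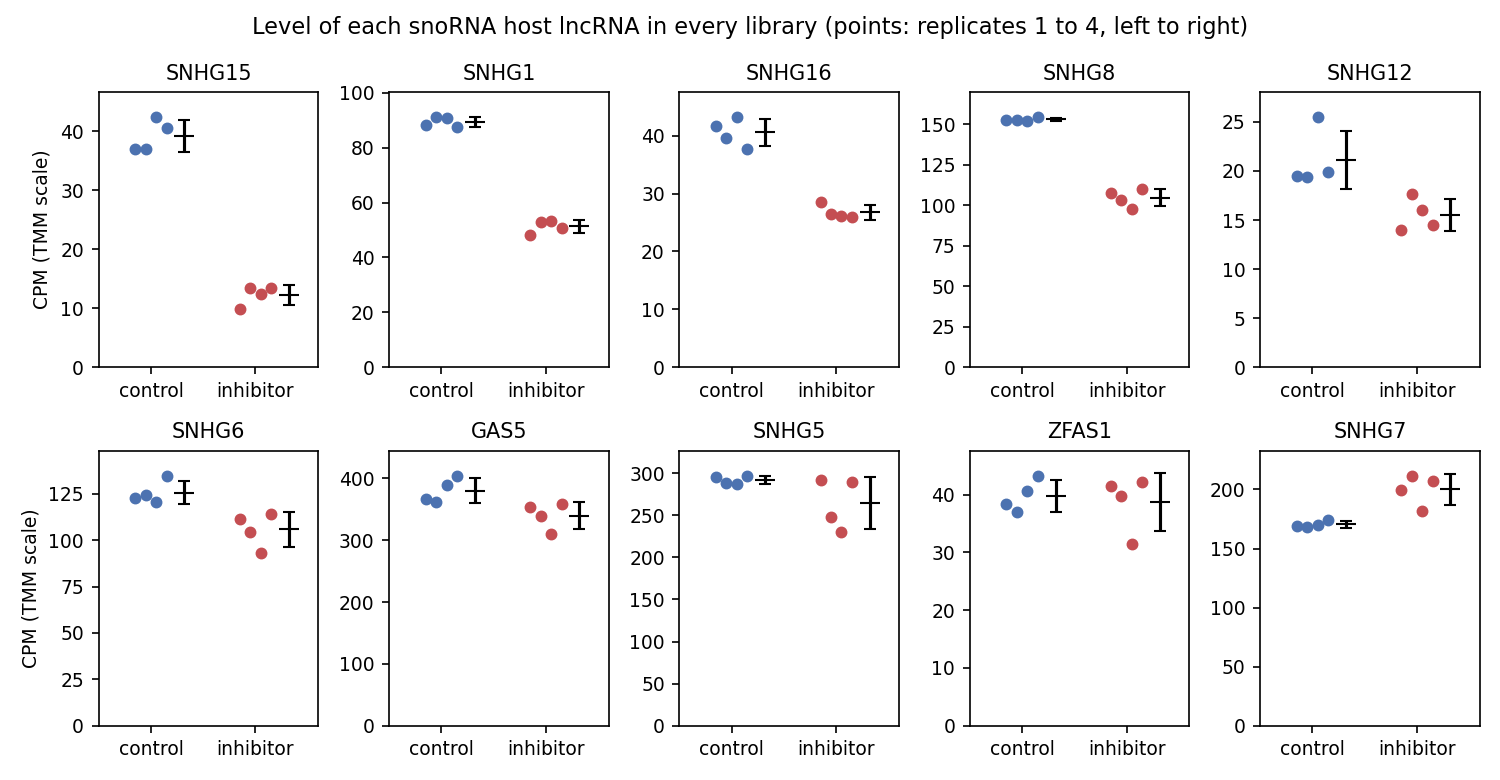
Level of each of the 10 host lncRNAs in CPM on the TMM scale (vertical axes start at 0 and differ between panels) in 4 control and 4 inhibitor libraries, with mean and SD beside the points, ordered by change. SNHG15 is lowest relative to its controls, SNHG7 alone has all inhibitor libraries above the controls, and SNHG5 and ZFAS1 overlap.

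GAS5 (ENSG00000234741; chromosome 1, 173858559 to 173868882, minus strand), named for its accumulation in growth-arrested cells and known to bind the glucocorticoid receptor as a decoy, had 366.6, 361.0, 388.9 and 404.7 CPM in controls and 353.5, 338.6, 309.3 and 358.2 CPM in inhibitor libraries. The highest inhibitor library lay just under the lowest control. The change was −0.16 ± 0.06 (10.6% lower; adjusted p = 0.0201). It was not called without control replicate 3 (−0.15, adjusted p = 0.0547), control replicate 4 (−0.13, adjusted p = 0.0824) or inhibitor replicate 3 (−0.13, adjusted p = 0.0591), nor with total counts and no TMM factors (−0.06, adjusted p = 0.346), and it was −0.29 with offsets for transcript GC content.

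SNHG6 (ENSG00000245910; chromosome 8, 66920561 to 66926398, minus strand), host of SNORD87, had 122.8, 124.4, 120.9 and 135.0 CPM in controls and 111.5, 104.5, 93.2 and 114.3 CPM in inhibitor libraries. It fell by 0.25 on the log2 scale (SE 0.07, adjusted p = 0.00224), or by 0.14 with total counts (adjusted p = 0.0484). SNHG5 (ENSG00000203875; chromosome 6, 85650491 to 85678932, minus strand), host of SNORD50A and SNORD50B, had 295.2, 288.6, 286.7 and 297.3 CPM in controls. Its inhibitor libraries split, with replicates 1 and 4 at 291.5 and 289.8 CPM, within the control range, and replicates 2 and 3 at 248.0 and 230.3 CPM. The change was −0.14 ± 0.07 (adjusted p = 0.0698; 95% interval −0.27 to −0.01 without adjustment). It was called lower without inhibitor replicate 1 (−0.21, adjusted p = 0.00925) or inhibitor replicate 4 (−0.19, adjusted p = 0.0271) and with the GC offsets (−0.26, adjusted p = 0.000988), and was −0.04 with total counts.

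ZFAS1 (ENSG00000177410; chromosome 20, 49278178 to 49299600, plus strand), host of SNORD12, SNORD12B and SNORD12C, had 38.5, 36.9, 40.6 and 43.3 CPM in controls and 41.5, 39.7, 31.5 and 42.2 CPM in inhibitor libraries. The groups overlapped, and inhibitor replicate 3 was the sole inhibitor library below the controls. The change was −0.04 ± 0.09 (adjusted p = 0.723; 95% interval −0.21 to 0.13), with a sign that turned to 0.07 under total counts, to 0.04 without inhibitor replicate 3 and to 0.00074 without control replicate 4. Inhibitor replicate 3 was the lowest inhibitor library for 6 of the 10 hosts (GAS5, SNHG5, SNHG6, SNHG7, SNHG8 and ZFAS1). Its TMM factor, 1.06, was the highest of the 8.

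SNHG7 (ENSG00000233016; chromosome 9, 136721366 to 136728184, minus strand), host of SNORA17A and SNORA17B, was the host that rose. It had 169.5, 168.2, 169.6 and 174.1 CPM in controls and 199.4, 211.8, 182.1 and 207.2 CPM in inhibitor libraries. Every inhibitor library lay above every control, and the change was 0.23 ± 0.06 (17.5% higher, adjusted p = 0.00112). With total counts it was 0.34 and with the GC offsets 0.47. SNHG7 had the highest GC content of the 10, 65.9% in its longest transcript, against 39.0% to 56.6% in the others. In GENCODE 30.3% of its exon bases are shared with the antisense gene DIPK1B, and the sources used here do not say if reads were assigned by strand. DIPK1B fell from 29.9 ± 1.95 to 16.2 ± 1.07 CPM (−0.88 ± 0.09, adjusted p = 3.12e-09), the direction opposite to SNHG7.

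Ratios between hosts within a library do not depend on scaling. The count of SNHG7 was 4.00 to 4.58 times that of SNHG15 in controls and 14.7 to 20.3 times in inhibitor libraries. SNHG7 took 12.6% ± 0.153 of the summed counts of the 10 hosts in controls and 17.3% ± 0.767 in inhibitor libraries, and SNHG15 took 2.90% ± 0.155 and 1.06% ± 0.167 (SD, n = 4). GAS5 had the largest share in both groups, 28.1% ± 0.802 and 29.3% ± 0.0777. These pairs and shares were chosen with the changes known and are given without a test.

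Per kilobase of annotated exon (union of all GENCODE exons), the control order was GAS5 (77.1 ± 4.10 CPM per kb), SNHG6 (49.8 ± 2.50), SNHG7 (34.8 ± 0.534), SNHG5 (23.2 ± 0.406), SNHG8 (23.1 ± 0.154), SNHG1 (22.5 ± 0.462), SNHG15 (9.94 ± 0.692), SNHG16 (7.02 ± 0.418), SNHG12 (4.94 ± 0.694) and ZFAS1 (4.79 ± 0.333). SNHG5 and SNHG8, and SNHG12 and ZFAS1, overlapped in their libraries, and the other neighbours in that order did not. In inhibitor libraries SNHG7 (40.9 ± 2.67) reached the range of SNHG6 (41.9 ± 3.72), and SNHG15 (3.10 ± 0.422) moved from the seventh place to the last, where it overlapped SNHG12 (3.64 ± 0.384). The order depends on the length used, since GENCODE models of these hosts include long or intron-retaining transcripts. Per kilobase of the canonical transcript, an alternative chosen after seeing the data, GAS5 stayed at the top in controls (495.2 ± 26.3), SNHG5 (221.8 ± 3.89) and SNHG16 (81.4 ± 4.84) followed, and ZFAS1 was again the lowest (8.80 ± 0.612).

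The rows of the snoRNAs themselves were almost without counts. GENCODE annotates 26 snoRNA rows inside 9 of the hosts on the same strand, all of which are in the files, and none inside GAS5. Of these rows, 22 had 0 counts in all 8 libraries. The other 4 were SNORD99 in SNHG12, SNORD12B and SNORD12C in ZFAS1 and SNORD1B in SNHG16, with at most 4 counts in a library and 8 to 14 counts over the 8 libraries. None passed the filter, so no change is given for any of them. Among the 23 snoRNA rows that overlap an annotated exon of their host, 22 were at 0, and among the 3 that do not, none was. These rows are 69 to 137 bases long, and the sources used here do not say whether the libraries kept RNAs of that size or how reads over 2 genes were counted. The changes above are thus those of the host rows, and no change of a snoRNA was measured. Whether reads from snoRNAs inside annotated host exons were counted for the host was not tested.

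A protein-coding gene starts within 1000 bases of 3 hosts (SNHG1, GAS5 and ZFAS1) on the other strand, which allowed host and neighbour to be compared within a library. SNHG1 starts 51 bases from SLC3A2, which encodes the heavy chain of amino acid transporters. SLC3A2 fell too (−0.33 ± 0.06, adjusted p = 5.90e-05), and the log2 ratio of SNHG1 to SLC3A2 counts went from −1.24 ± 0.10 to −1.70 ± 0.18 (SD, n = 4), with no overlap (difference −0.47; exact permutation test, two-sided, p = 0.0286, which is the lowest that 4 against 4 can give, and 0.0857 adjusted over 3 ratios). GAS5 starts 800 bases from ZBTB37, a zinc finger gene that did not pass (0.20 ± 0.09, adjusted p = 0.0608), and their log2 ratio went from 2.82 ± 0.19 to 2.47 ± 0.29 (exact permutation p = 0.0857, adjusted 0.129). ZFAS1 starts 248 bases from ZNFX1 (0.05 ± 0.08, adjusted p = 0.593), and their log2 ratio was 0.41 ± 0.15 and 0.31 ± 0.23 (exact permutation p = 0.514, adjusted 0.514).

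SNHG6, SNHG8 and SNHG12 overlap genes on the opposite strand that had few counts or share few exon bases. MCMDC2 shares 58.9% of the exon bases of SNHG6 and was at 3.71 ± 0.586 and 3.41 ± 0.941 CPM. PRSS12 shares 37.6% of those of SNHG8 and had a mean of 24.8 counts in controls and 23.2 in inhibitor libraries. TRNAU1AP shares 0.188% of those of SNHG12. If the counting ignored strand, reads in shared exon bases could not be told apart.

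**Figure D2:**
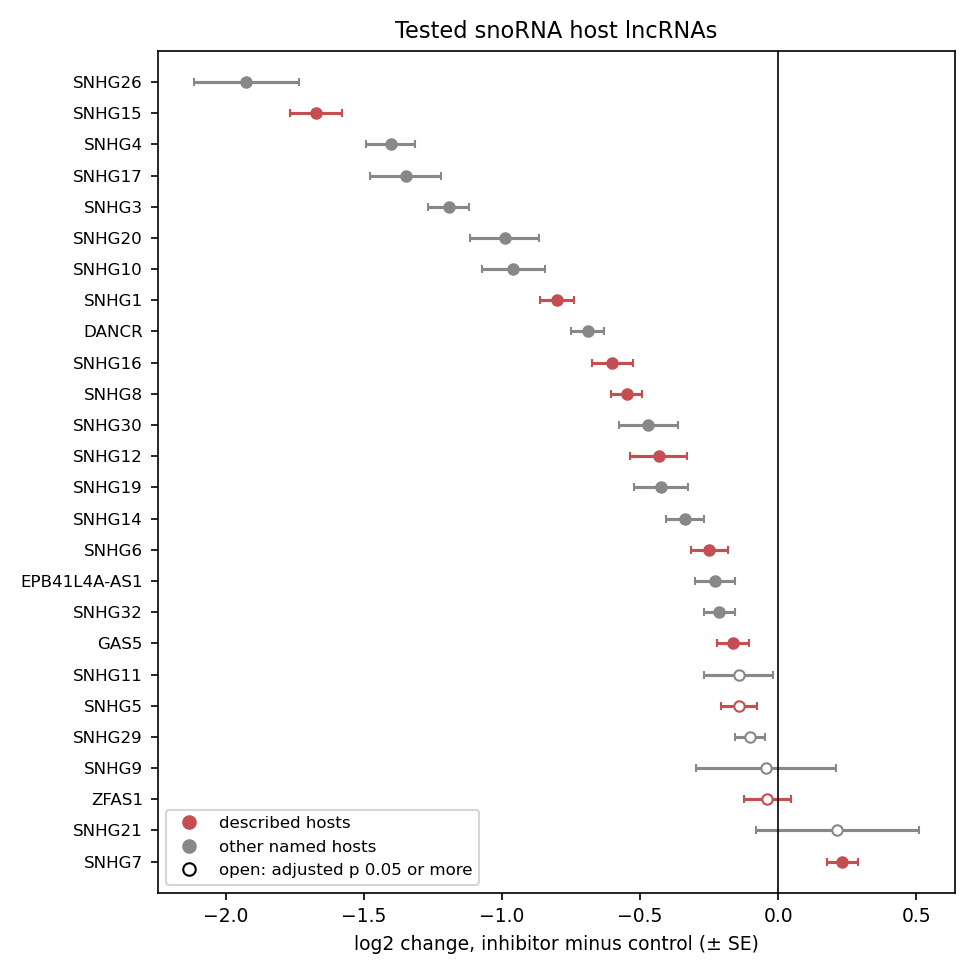
Log2 change, inhibitor minus control, ± SE for the 26 tested snoRNA host lncRNAs, the 10 described here in red and 16 other named hosts in grey, with open points for an adjusted p of 0.05 or more. SNHG26 and SNHG15 lie farthest to the left, and SNHG7 is the filled point to the right of 0.

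Other snoRNA host lncRNAs, from a list of 22 names, moved in the same direction as most of the 10. Of the 16 that passed the filter, 12 fell, 0 rose and 4 did not pass (median −0.45), with 0 higher also at an unadjusted p under 0.05 and by DESeq2. SNHG26 went from 6.62 ± 1.41 to 1.74 ± 0.223 CPM (−1.93 ± 0.19, adjusted p = 4.29e-09), SNHG4 from 32.3 ± 2.21 to 12.2 ± 0.863 CPM (−1.40 ± 0.09), SNHG17 from 22.4 ± 1.39 to 8.78 ± 2.28 CPM (−1.35 ± 0.13) and SNHG3 from 60.3 ± 0.975 to 26.2 ± 2.34 CPM (−1.19 ± 0.07). DANCR, a host with known roles in progenitor cells, went from 104.7 ± 2.21 to 64.9 ± 2.04 CPM (−0.69 ± 0.06). SNHG29, at 479.9 ± 20.3 and 447.1 ± 17.8 CPM, did not pass (−0.10 ± 0.05, adjusted p = 0.109). Of all 26 tested hosts, the 8 at or above 100 CPM in controls had a median of −0.19 (5 lower, 1 higher). The median of tested genes at that level was −0.16. The 18 hosts under 100 CPM had a median of −0.53 (14 lower, 0 higher), against 0.06 for tested genes at that level. Of 22 tested lncRNAs that GENCODE shows with a snoRNA on their strand, the 10 left out, 12 fell and 2 rose (median −0.22). With total counts 10 of them fell and 2 rose (median −0.12). This set shares genes with the list.

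Hosts were also set side by side by the class of snoRNA they carry. The 5 hosts with box C/D names alone (SNHG1, SNHG5, SNHG6, SNHG16 and ZFAS1, SNHG1 with 1 further unnamed entry) ranged from −0.80 to −0.04. The 3 with box H/ACA names alone (SNHG7, SNHG8 and SNHG15) spanned −1.67 to 0.23, which includes both extremes of the 10. GAS5 and SNHG12 hold both, at −0.16 and −0.43. These are descriptions over few genes, and the difference between classes was not tested.

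Of 20 tested genes whose proteins bind or assemble snoRNAs, the core and assembly list, the RNA of 16 fell, 1 rose and 3 did not pass (median −0.61). NOP56, which encodes a core box C/D protein and is itself a snoRNA host, went from 236.2 ± 14.8 to 102.7 ± 6.03 CPM (−1.20 ± 0.06, adjusted p = 1.58e-14). NHP2 (−1.08 ± 0.07) and the pseudouridine synthase gene DKC1 (−0.92 ± 0.06) of the box H/ACA particle fell, as did NOLC1 (−1.50 ± 0.06), which encodes a nucleolar chaperone of both classes. RPAP3, a cochaperone of snoRNP assembly, rose (0.34 ± 0.06, adjusted p = 3.59e-05).

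Of 44 listed protein-coding snoRNA hosts, 26 fell, 2 rose and 16 did not pass (median −0.16), or 14 fell and 4 rose with total counts (median −0.05). GNL3 (−1.08 ± 0.06), which encodes nucleostemin, and HSPA9 (−0.89 ± 0.05) fell, and the initiation factor genes EIF4A2 (0.62 ± 0.05) and EIF4G2 (0.36 ± 0.06) rose. Over all 224 tested coding genes that GENCODE shows with a snoRNA on their strand, 85 fell and 55 rose (median −0.08), or 63 fell and 72 rose with total counts (median 0.03). The shares as fitted were 59.1% lower and 4.55% higher for the 44 listed hosts, and 37.9% and 24.6% for the 224. Of all tested genes 28.3% were called lower and 29.8% higher.

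TOP mRNA genes share the pyrimidine start with many hosts. Among 78 ribosomal protein genes 43 fell, 0 rose and 35 did not pass (median −0.15), with 48 lower and 0 higher at an unadjusted p under 0.05, 45 and 0 by DESeq2, and 13 and 0 with total counts. The share called lower was 55.1%, against 28.3% of all tested genes. Of the 2280 tested genes at or above 100 CPM in controls, 1196 were called lower and 413 higher (median −0.16). The share called lower and the median of the ribosomal protein genes are thus near those of the genes at or above 100 CPM. They differ in the other direction, with 0 of 78 higher against 413 of 2280. Levels were not matched in this comparison. Of 16 tested other TOP genes, 4 fell and 0 rose, with the same counts at an unadjusted p under 0.05 and by DESeq2, or 3 and 4 with total counts and 8 and 2 with the GC offsets (median −0.16, against −0.04 as fitted). RPL8 (−0.30 ± 0.06) and RPL35 (−0.31 ± 0.06), of the large ribosomal subunit, were among those that fell. NPM1 (−0.38 ± 0.06), the nucleophosmin gene, and the elongation factor gene EEF1B2 (−0.33 ± 0.06) fell among the other TOP genes. MTOR itself went from 113.0 ± 3.38 to 98.0 ± 8.17 CPM (−0.21 ± 0.06, adjusted p = 0.00745).

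NMD factor genes moved in both directions, as did tested genes in general. Of 20 tested, 8 fell, 4 rose and 8 did not pass (median −0.06), or 5 fell and 8 rose with total counts. The shares were 40% lower and 20% higher. Of all tested genes 58% were called, 28.3% lower and 29.8% higher (median 0.02). The central helicase gene UPF1 fell from 159.8 ± 3.70 to 114.7 ± 2.97 CPM (−0.48 ± 0.05, adjusted p = 5.20e-08), PNRC2 rose by 0.61 ± 0.06 and NBAS by 0.50 ± 0.08. XRN1, which encodes the main cytoplasmic exonuclease for uncapped RNA, rose from 36.9 ± 3.76 to 61.7 ± 10.1 CPM (0.74 ± 0.10, adjusted p = 2.09e-06). Whether decay of the host lncRNAs differed was not measured.

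**Figure D3:**
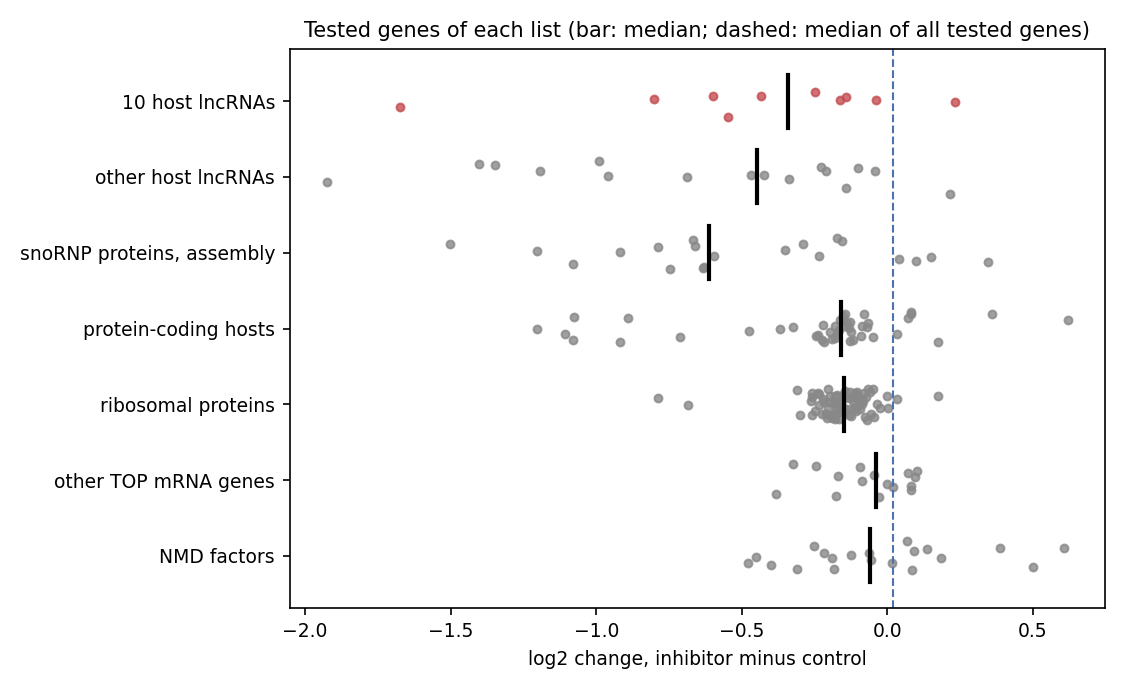
Log2 change, inhibitor minus control, of each tested gene in 7 lists, with the list's median as a bar and the median of all 16452 tested genes (0.02) as a dashed line. The bars of the 10 hosts (−0.34), the other host lncRNAs (−0.45) and the snoRNP list (−0.61) lie left of those of ribosomal protein genes (−0.15). Tested genes at or above 100 CPM in controls had a median of −0.16, which is not drawn.

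MARK3, the stated target, rose from 78.0 ± 2.31 to 90.6 ± 2.29 CPM (0.22 ± 0.06, adjusted p = 0.00287). MYC, a transcription factor known to drive ribosome biogenesis genes, fell from 378.3 ± 8.55 to 32.8 ± 2.99 CPM (−3.53 ± 0.07). The gene of the glucocorticoid receptor, NR3C1, rose from 19.6 ± 1.83 to 45.1 ± 3.40 CPM (1.20 ± 0.08), while GAS5 changed by −0.16. Among 10265 other genes of at least 10 CPM, ATAD3A (Pearson r = 0.998 over 8 libraries), ZNF524, GMPR, MYBL2 and CD151 (each r = 0.997 or more) had profiles most like the mean log2 CPM of the 10 hosts, and CLIC1 (r = 0.985) was most like GAS5. Both groups enter each r, so it includes the difference between them. Within groups, the deviations of 2 hosts from their group means had a median r of 0.08 over 45 pairs of hosts and 8 libraries (range −0.87 to 0.96).

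**Figure D4:**
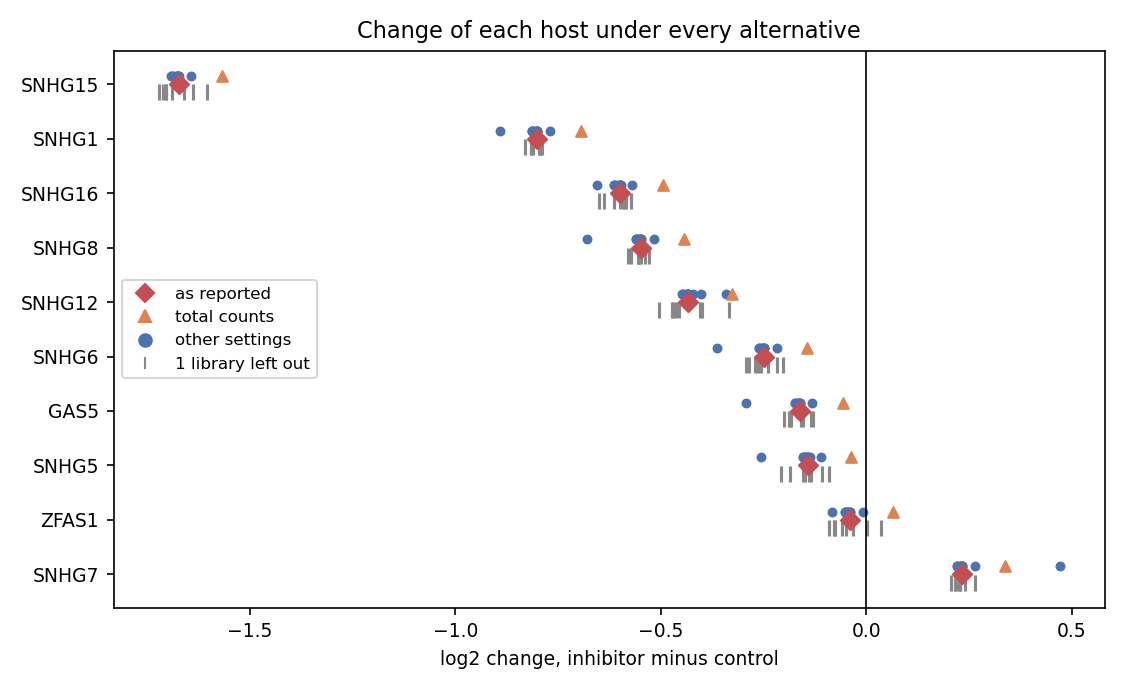
Log2 change of each host, inhibitor minus control, as reported (diamond), with total counts alone (triangle), under the other settings (points) and with 1 library left out (ticks). SNHG15, SNHG1, SNHG16, SNHG8, SNHG12 and SNHG6 stay left of 0 and SNHG7 right of 0 throughout, whereas ZFAS1 crosses it.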

How the data were processed

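Deposited values were whole-number counts per Ensembl gene, 1 file per library, made by the authors on hg38 with featureCounts; the submitters' processing notes also name DESeq2. The sources used here do not give the aligner, annotation, versions, kit or strandedness. Total counts ranged from 12672817 to 21271127. Every pair of libraries in a group differed by more than sampling noise (chi-square of at least 1.74 per degree of freedom over 14677 genes). Controls 1 and 2 (1.76) and controls 3 and 4 (1.74) were closest, against 3.66 to 4.99 in the other control pairs. Pairs of inhibitor libraries ranged from 3.64 to 10.8. Whether the 4 controls are independent replicates was not tested, and p-values treat them as such. Symbols, exons and GC content came from GENCODE 44 (58207 of 58735 identifiers matched), and start regions from RefSeq.

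Counts of all genes were fitted with edgeR 4.0.16 (R 4.3.3): filterByExpr (16452 genes), TMM factors, robust glmQLFit and glmQLFTest on the group, and Benjamini-Hochberg adjustment. SE is the absolute log2 change divided by the square root of F, and 95% intervals use the normal quantile. The procedure was also run on simulated counts in which few genes changed, unlike these data. It therefore does not bear on the choice of scaling. Ratios were tested by exact two-sided permutation. DESeq2 1.42.0, limma-voom (limma 3.58.1), other scalings and filters, a replicate block, GC offsets, thinning and leaving out each library were alternatives.

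The 10 genes and the lists were chosen with earlier results of these data known. Named genes were the 10 hosts, snoRNA rows of at least 10 mean counts (the 4 rows with any count are also named, chosen after their values were seen), overlapping genes and genes starting within 1000 bases, MYC, NR3C1, MTOR and MARK3, up to 4 called genes per direction of each list (SNHG26, SNHG29 and others outside this were chosen after seeing values), and the 5 genes most like the hosts' mean or GAS5. Some overlapping genes are not reported here.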

Additional observations from a re-analysis of the deposited data

Results flagged for a closer look

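SNHG12 in control replicate 3 was 25.5 CPM, against 19.4 to 19.9 CPM in the other controls, a gap of 0.920 of the range of the group, above the limit of Dixon's test for 4 libraries. It was the only such value among 20 sets of 4 libraries (10 hosts in 2 groups), and chance gives about 1 in 20. Without that library SNHG12 was still called lower (−0.33 ± 0.10, adjusted p = 0.00888).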

How the results depend on the processing

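Over 19 alternatives for each host, 7 of the 10 hosts (SNHG1, SNHG6, SNHG7, SNHG8, SNHG12, SNHG15 and SNHG16) kept their direction and their side of the threshold. The number of hosts called lower was 6 to 8 and the number called higher was 1 in every setting and with each library left out, and the number of all genes called was 7751 to 9870 over the settings and 8867 to 9347 with 1 library left out. GAS5 lost its call with upper-quartile factors (−0.13, adjusted p = 0.0663), with total counts and without 3 single libraries (−0.20 to −0.13 over the 8). SNHG5 gained a call with the GC offsets and without 2 single libraries (−0.21 to −0.09 over the 8). The sign of ZFAS1 turned with total counts (0.065) and without 2 single libraries (−0.0907 to 0.0353 over the 8). Total counts moved the median of all genes from 0.02 to 0.13 and the split of calls from 4897 higher and 4652 lower to 6274 and 3596, so small changes are stated relative to the TMM scale. With the replicate number as a block, 8 hosts were lower, SNHG5 being called (−0.15, adjusted p = 0.0365), and 9596 genes were called. Deviations of same-numbered libraries had r of 0.13, −0.09, −0.05 and 0.08, against −0.16 to 0.13 for libraries of unlike number. Pairing by number was thus not seen, but 4 libraries per group cannot exclude it. The cause of these shifts was not tested. No snoRNA row had enough counts to be tested, and the part of depth in this was not tested.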
